A study of Homo sapiens with 12 samples.

Results

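The genes described here carry peptides to the cell surface for inspection by cytotoxic T cells and natural killer cells. They are the MHC class I heavy chains HLA-B, HLA-C, HLA-E and HLA-F, the light chain B2M, the peptide transporter subunits TAP1 and TAP2, the loading chaperone TAPBP (tapasin), and PSMB9, a catalytic subunit of the immunoproteasome. The 9 genes were chosen by symbol among 59248 rows of the deposited gene tables, each through 1 Ensembl identifier, and all 9 passed the filter on low counts that left 16489 genes for testing. The libraries come from SJSA-1, an established human osteosarcoma cell line. The sh1 group holds 6 libraries of cells stably expressing RUNX2 shRNA-1 from a lentivirus, and the shNC group holds 6 libraries of cells stably expressing a scramble shRNA from the same vector. Both groups therefore carry an EGFP and puromycin resistance cassette and were selected with puromycin. The study asked which transcripts change when RUNX2, a transcription factor of bone formation, is silenced. Each group rests on 1 shRNA in 1 cell line. Since nothing in the labels or methods says whether a group's libraries were grown or infected separately, the p-values cover only library-to-library spread, which may be technical.

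In textbook terms, proteasomes cut cytosolic proteins into peptides, and the immunoproteasome, in which PSMB9 takes the place of PSMB6, favours cuts that give ligands for class I molecules. The TAP1 and TAP2 heterodimer pumps the peptides into the endoplasmic reticulum, where tapasin bridges the transporter and a heavy chain paired with B2M until a peptide is bound. Nearly all nucleated cells express this machinery at a basal level, and interferon-gamma raises it through the factor IRF1 and the coactivator NLRC5, while NF-kappaB adds to the transcription of the heavy chains and B2M.

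Of the 9 genes, 5 were higher in sh1 and 4 did not pass the test, at an adjusted p under 0.05 from edgeR's quasi-likelihood test of all genes. Over all genes tested, 12.8% were called higher and 13.3% lower, 26.1% in all. The higher genes were HLA-B, HLA-C, TAP1, TAPBP and PSMB9. HLA-B was the only member called higher with at least a 2-fold change, as 1.2% of all genes were. It fell under 2-fold without shNC replicate 1 (log2 fold change 0.98) and with limma on log2(FPKM + 1) (0.89). HLA-E, HLA-F, B2M and TAP2 were not called. No member was called lower, and none was lower at an unadjusted p under 0.05 or with DESeq2 or limma. The 6 sh1 libraries lay above all 6 shNC libraries for 4 of the 9 members, as they did for 5.84% of all genes tested, and below them for none, against 6.08% of all genes. The median log2 fold change of the 9 members was 0.36, and that of all genes tested was -0.00349.

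**Figure D1:**
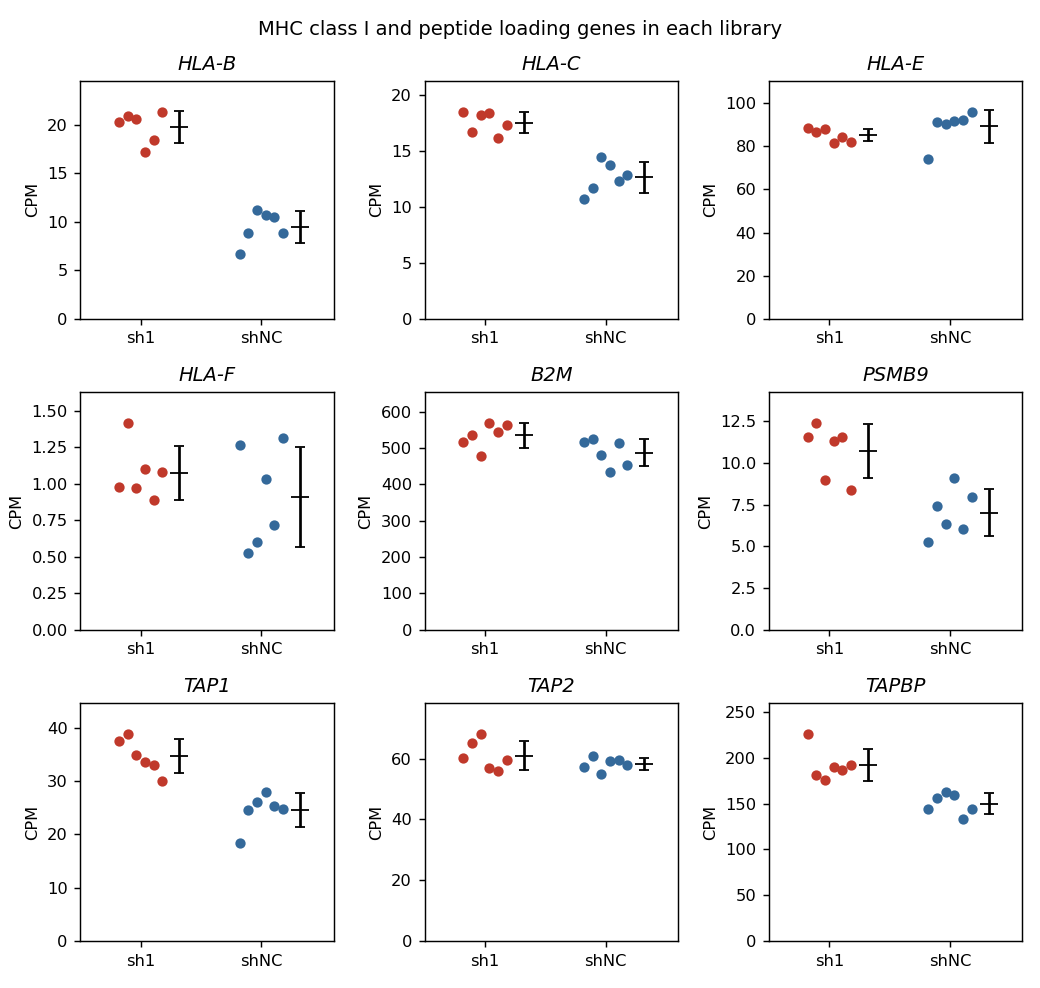
TMM-normalized CPM (counts scaled to a common library size, vertical axes from 0) of each of the 9 genes in the sh1 libraries (red) and the shNC libraries (blue), with the mean and SD of each group in black. The groups separate for HLA-B, HLA-C, TAP1 and TAPBP, meet at the edge for PSMB9 and overlap for HLA-E, HLA-F, B2M and TAP2.

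The upstream sequences of the members hold elements of the kind that interferon and NF-kappaB act through, and the short stretches that carry them are shown here because they differ between members. RefSeq promoter windows (GRCh38.p14, 250 bases before to 50 after the annotated start) were at hand for 8 of the 9 members. HLA-E has none. TAP1 has windows for 2 starts. The interferon-stimulated response element (ISRE) was searched on both strands as GAAA, any 2 bases and GAAA, and its matches are in capitals:
TAP1: cggccgcTTTCGATTTCGCTTTCccctaaa
TAPBP: tttggagGAAAGTGAAAGTGAAAggaggaa
TAP2: ctggggaagcGAAAGCGAAAgctgcccgag
B2M: actctaaGAAAAGGAAACTGAAAacgggaa
HLA-F: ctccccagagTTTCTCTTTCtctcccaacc
All are written from 5′ to 3′ on the strand of the gene, and in TAP1 and HLA-F the match is on the other strand, so that it reads TTTC in place of GAAA. They lie at chr6:32853816-32853845 on the minus strand for TAP1, chr6:33314076-33314105 on the minus strand for TAPBP, chr6:32838778-32838807 on the minus strand for TAP2, chr15:44711366-44711395 on the plus strand for B2M and chr6:29723268-29723297 on the plus strand for HLA-F. In TAP1, TAPBP and B2M, a pair of matches overlaps and covers 16 bases. The ISRE was found in 5 of the 8 members with a window and in 3.57% of the 35116 windows in the table. Of the 5 members with the element, 2 were called higher in sh1 (TAP1 and TAPBP) and 3 were not (TAP2, B2M and HLA-F). HLA-B, HLA-C and PSMB9, all called higher, had no match in these windows. The TAP1 stretch lies between the upstream start of TAP1 (32853704, minus strand) and the start of PSMB9 (32854192, plus strand). The PSMB9 window begins at 32853942 and so leaves that stretch out.

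The classical heavy chain genes differ from HLA-F at the position of the enhancer that binds NF-kappaB. The pattern GGG, any 5 bases and CC was searched on both strands. The HLA-B stretch around it is set beside the stretches of HLA-C and HLA-F with the most identical bases, with matches in capitals:
HLA-B: gcgcagcgttGGGGATTCCCCactcccctg
HLA-C: gcgccgcgttgGGGATTCTCCactcccctg
HLA-F: gctcagtattgagaattccccatctcccca
They lie at chr6:31357337-31357366 on the minus strand for HLA-B, chr6:31272246-31272275 on the minus strand for HLA-C and chr6:29723245-29723274 on the plus strand for HLA-F. The HLA-C stretch is identical to that of HLA-B at 28 of 30 bases and the HLA-F stretch at 20 of 30 bases, with no match of the pattern in HLA-F. This pattern is loose and was found in 58.7% of all windows, and in those of 6 of the 8 members. The Y box CCAAT was in the windows of 6 members and in 34.6% of all windows, the CRE core TGACG in those of 5 members and in 24.6% of all windows, and the gamma-activated site TTCNNNGAA in that of TAP1 only and in 7.66% of all windows. The RUNX motif TGTGGT was in none of the members' windows and in 13.1% of all windows. A match is a match of letters and no measurement of binding, and the absence of one says only that these letters are not in this stretch.

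**Figure D2:**
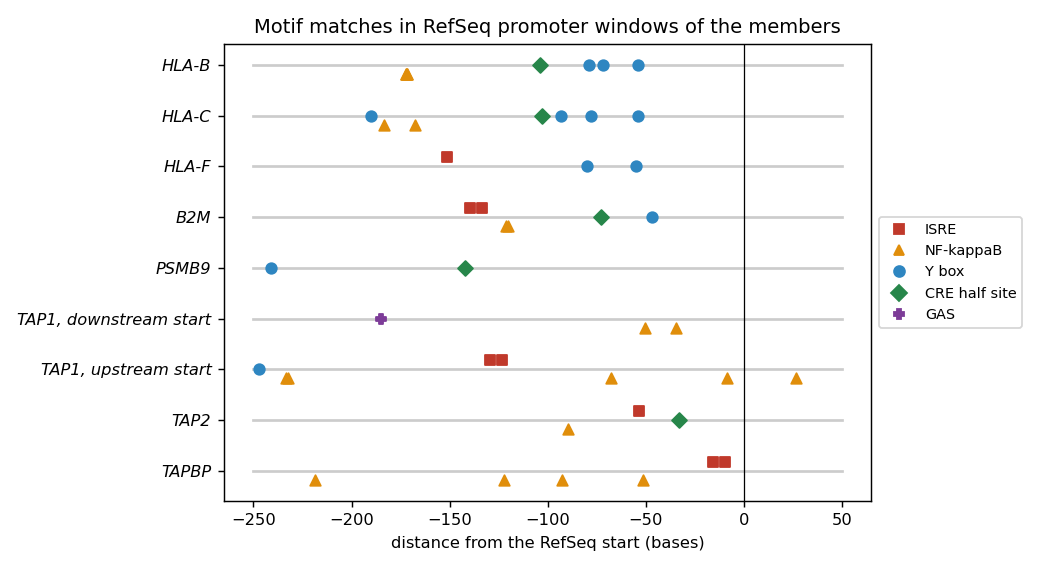
Positions of motif matches in the RefSeq promoter windows of the members, in bases from the annotated start (horizontal axis, start at 0), with 1 row per window and 2 for TAP1. ISRE matches (red squares) stand in the rows of HLA-F, B2M, TAP1, TAP2 and TAPBP, and NF-kappaB pattern matches (orange triangles) in 6 of the 8 members.

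RUNX2 itself was lower in sh1, at 24.5 ± 1.95 CPM, against 39.7 ± 4.30 CPM in shNC (SD, n = 6 each). The groups did not overlap, and edgeR gave a log2 fold change of -0.69 with a standard error (SE) of 0.076 (adjusted p = 4.6e-06). Library totals ranged from 11239638 to 16346022 counts in sh1 and from 15328312 to 19992974 in shNC. The sh1 replicate 3 library had the lowest total and fell apart from the other sh1 libraries on the second principal component, and without it 6 of the 9 members were called, B2M being added. Of 9 markers of bone and of SJSA-1, 8 were tested, 4 were higher (SPARC, COL1A1, CDH11 and MDM2) and RUNX2 alone was lower. Of all genes tested, 12.8% were higher and 13.3% lower. MDM2, which is amplified in this line, was at 1122 CPM in sh1 and 909 CPM in shNC, and the matrix protein SPARC at 2280 CPM in sh1 and 1442 CPM in shNC.

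HLA-B and HLA-C encode classical heavy chains, which present peptides to T cells and serve as ligands of killer cell receptors. HLA-B (ENSG00000234745, chromosome 6, 31353872 to 31367067, minus strand, GRCh38) was at 17.2 (lowest), 20.4 (median) and 21.3 CPM (highest) in the sh1 libraries and at 6.66, 9.67 and 11.2 CPM in the shNC libraries. Every sh1 library lay above every shNC library. By edgeR the log2 fold change was 1.06 ± 0.11 (SE; adjusted p = 1.55e-06), which is 2.09-fold and larger in size than 98.2% of the changes of all genes tested. Permuting the libraries exactly (two-sided) gave p = 0.00216, the lowest value possible with 6 libraries a group. HLA-C (ENSG00000204525, chromosome 6, 31268749 to 31272130, minus strand) was at 16.1, 17.7 and 18.4 CPM in the sh1 libraries and at 10.7, 12.6 and 14.4 CPM in the shNC libraries, again with no overlap. By edgeR its log2 fold change was 0.47 ± 0.080 (SE; adjusted p = 0.000317).

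HLA-B changed more than HLA-C within the same libraries. Per length, the ratio of HLA-B to HLA-C FPKM (fragments per kilobase of gene length, scaled to the library total) was 0.931 ± 0.0937 in sh1 and 0.613 ± 0.0657 in shNC (SD, n = 6 each). The lowest sh1 ratio, 0.770, was above the highest shNC ratio, 0.701. The log2 ratio differed by 0.60 (exact two-sided permutation p = 0.00216, adjusted p = 0.00289 over 4 ratios). A ratio within a library does not depend on the scaling between libraries. Heavy chain genes are paralogs, so stretches they share matter for such a ratio: no 100-base stretch of the canonical HLA-B transcript occurs in a transcript of another gene in GENCODE 44, and 0.277% of those of HLA-C do. The HLA-B model of that annotation has 4623 exon bases, against 3051 behind the FPKM values. It shares 1421 exon bases with the pseudogene DHFRP2 on the same strand and 671 with another pseudogene (ENSG00000271581) on the opposite strand. These are reference sequences, and how reads from the alleles that SJSA-1 carries were aligned was not tested.

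HLA-E and HLA-F encode non-classical heavy chains. HLA-E presents leader peptides of other class I molecules to receptors of natural killer cells. HLA-E (ENSG00000204592, chromosome 6, 30489509 to 30494194, plus strand) was at 81.6, 85.7 and 88.6 CPM in the sh1 libraries and at 74.3, 91.7 and 95.9 CPM in the shNC libraries. The lowest shNC value belongs to replicate 1, and the other 5 shNC libraries, from 90.2 CPM up, lay above all sh1 libraries. The log2 fold change was -0.07 (adjusted p = 0.42 from edgeR), with a 95% interval from -0.18 to 0.045. Without shNC replicate 1 it was -0.12 (adjusted p = 0.073). HLA-F (ENSG00000204642, chromosome 6, 29722775 to 29738528, plus strand) had 11 to 23 counts in the sh1 libraries and 10 to 22 counts in the shNC libraries. At this depth its log2 fold change of 0.26 (adjusted p = 0.46 from edgeR) had an interval from -0.22 to 0.74, wide enough to hold the changes of HLA-C and of HLA-E. HLA-F shares 535 exon bases with the antisense gene HLA-F-AS1, which had 9 to 20 counts per library. It shares 674 with a pseudogene (ENSG00000225864), also on the opposite strand, and the library kit does not mark strand.

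Taken per length, HLA-E made up most of the heavy chain RNA of these 4 genes. It took 67.7% ± 0.945 of their summed FPKM in sh1 and 78.3% ± 1.51 in shNC (SD, n = 6 each), while HLA-B took 15.3% ± 0.991 in sh1 and 8.04% ± 0.963 in shNC. HLA-C took 16.5% ± 0.910 in sh1 and 13.1% ± 0.876 in shNC. The summed FPKM of the 4 genes was 42.6 ± 1.47 in sh1 and 38.2 ± 3.84 in shNC, a difference of 4.41 FPKM (exact two-sided permutation p = 0.00433). The groups overlapped, with 40.7 FPKM in the lowest sh1 library and 40.8 in the highest shNC library. In shNC replicate 1 the sum was 30.6 FPKM, and without that library the difference was 2.88 FPKM. The sum of HLA-B and HLA-C alone was higher in sh1 by 5.44 FPKM (exact permutation p = 0.00216). Each of these genes by itself had every sh1 library above every shNC library. The p of their sum was therefore fixed at its lowest value and is no further evidence.

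B2M, on chromosome 15 (ENSG00000166710, 44711358 to 44718851, plus strand), encodes the light chain that pairs with class I heavy chains. It was the most abundant member, at 478, 540 and 569 CPM in the sh1 libraries and 436, 497 and 524 CPM in the shNC libraries. The groups overlapped, and 4 of the 6 sh1 libraries lay above every shNC library. By edgeR the log2 fold change was 0.13 ± 0.058 (SE; adjusted p = 0.095), with an interval from 0.021 to 0.25. B2M passed without sh1 replicate 3, its lowest sh1 library (0.17, adjusted p = 0.026), and when libraries were scaled by their totals alone (0.15, adjusted p = 0.047). The ratio of the summed FPKM of HLA-B, HLA-C, HLA-E and HLA-F to B2M FPKM was 0.484 ± 0.0459 in sh1 and 0.482 ± 0.0686 in shNC (SD, n = 6 each; exact two-sided permutation p = 0.911). This sum leaves out class I heavy chain genes that are not members, so it is not the whole heavy chain RNA. With HLA-B and HLA-C alone as heavy chains, the log2 ratio to B2M was higher in sh1 by 0.60 (exact permutation p = 0.00216). These are the heavy chain members called higher, so this ratio is not separate from their calls.

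**Figure D3:**
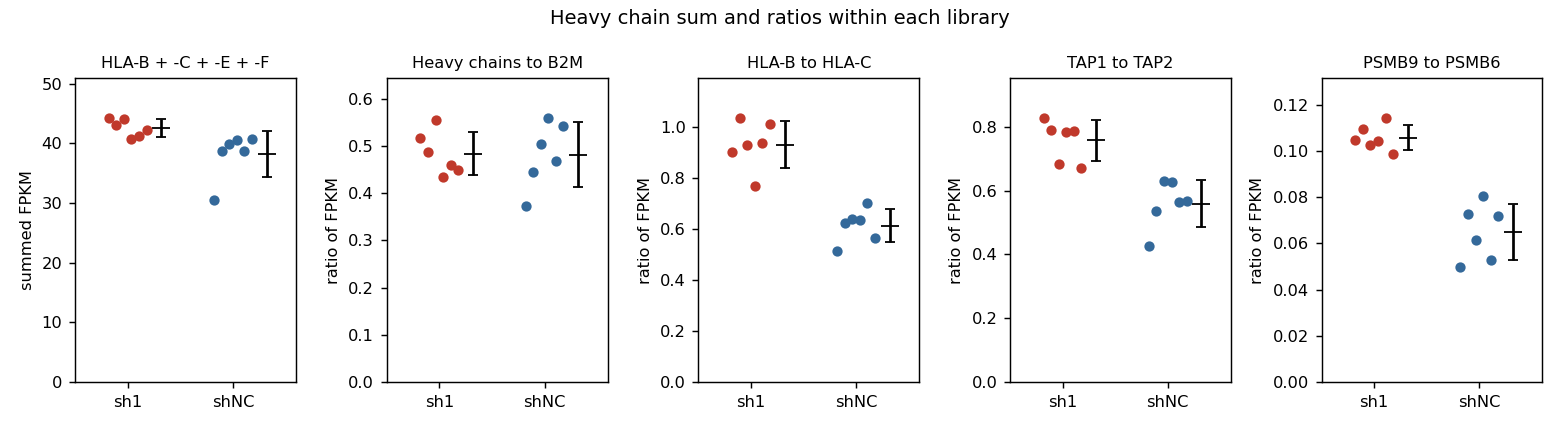
Summed FPKM of HLA-B, HLA-C, HLA-E and HLA-F (left) and ratios of FPKM within each library, with points for libraries (sh1 red, shNC blue) and the mean and SD of each group in black. The ratios of HLA-B to HLA-C, TAP1 to TAP2 and PSMB9 to PSMB6 do not overlap between the groups, while that of heavy chains to B2M averages 0.484 in sh1 and 0.482 in shNC.

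The subunits of the peptide transporter differed. TAP1 (ENSG00000168394, chromosome 6, 32845209 to 32853816, minus strand) was at 30.1, 34.3 and 38.8 CPM in the sh1 libraries and at 18.4, 25.0 and 27.9 CPM in the shNC libraries, with no overlap. By edgeR its log2 fold change was 0.50 ± 0.088 (SE; adjusted p = 0.000428), and 0.43 without shNC replicate 1, its lowest library. TAP2 (ENSG00000204267, chromosome 6, 32821833 to 32838739, minus strand) was at 56.0, 59.9 and 68.0 CPM in the sh1 libraries and at 55.1, 58.6 and 60.7 CPM in the shNC libraries. The groups overlapped, and the log2 fold change was 0.06 (adjusted p = 0.43 from edgeR, interval from -0.046 to 0.17). The ratio of TAP1 to TAP2 FPKM was 0.757 ± 0.0642 in sh1 and 0.559 ± 0.0744 in shNC (SD, n = 6 each), and the log2 ratio differed by 0.45 (exact two-sided permutation p = 0.00216, adjusted p = 0.00289 over 4 ratios). Of the 100-base stretches of the canonical TAP2 transcript, 34.7% also occur in a readthrough gene (ENSG00000250264) that had 0 counts in every library, and how reads of the shared exons were assigned was not tested.

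TAPBP (ENSG00000231925, chromosome 6, 33299694 to 33314284, minus strand) was at 176, 189 and 226 CPM in the sh1 libraries and at 133, 150 and 162 CPM in the shNC libraries. There was no overlap, and sh1 replicate 1 stood above the other sh1 libraries. By edgeR the log2 fold change was 0.36 ± 0.063 (SE; adjusted p = 0.000453), and 0.32 without sh1 replicate 1. PSMB9 (ENSG00000240065, chromosome 6, 32844136 to 32859851, plus strand) was at 8.36, 11.4 and 12.4 CPM in the sh1 libraries and at 5.28, 6.87 and 9.10 CPM in the shNC libraries. Here 4 of 6 sh1 libraries lay above every shNC library, and sh1 replicates 3 and 6 lay within the range of shNC. By edgeR the log2 fold change was 0.61 ± 0.13 (SE; adjusted p = 0.00211). PSMB6, the constitutive subunit that PSMB9 replaces, was at 47.5 ± 5.69 CPM in sh1 and 51.1 ± 2.45 CPM in shNC (log2 fold change -0.10, adjusted p = 0.32 from edgeR). The ratio of PSMB9 to PSMB6 FPKM was 0.106 ± 0.00543 in sh1 and 0.0648 ± 0.0122 in shNC (SD, n = 6 each). On this ratio the groups did not overlap, with 0.0986 in the lowest sh1 library and 0.0804 in the highest shNC library, and the log2 ratio differed by 0.73 (exact two-sided permutation p = 0.00216, adjusted p = 0.00289 over 4 ratios).

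**Figure D4:**
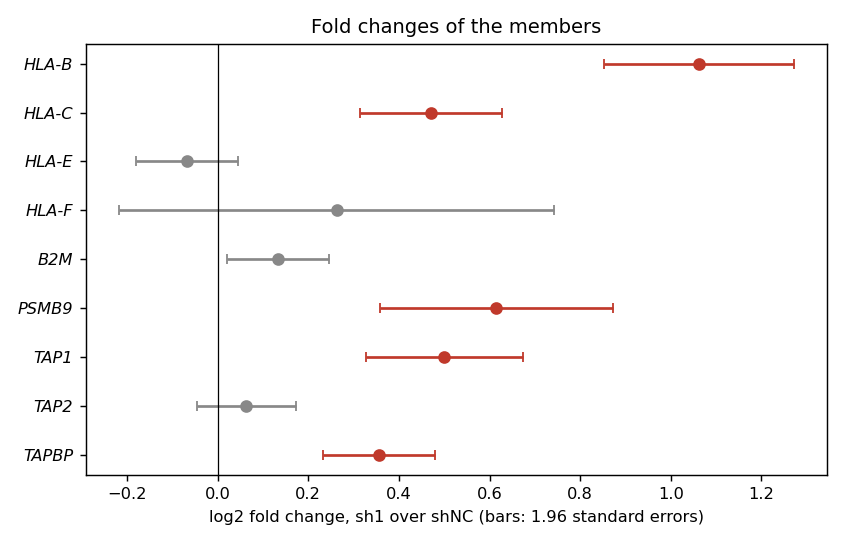
Log2 fold change, sh1 over shNC, of the 9 genes (horizontal axis), with bars for the 95% interval taken from the standard error. Genes called at an adjusted p under 0.05 are in red, from 0.36 for TAPBP to 1.06 for HLA-B, and the others in grey.

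By mean level per length in sh1 the order was B2M, TAPBP, HLA-E, TAP2, TAP1, HLA-C, HLA-B, PSMB9 and HLA-F. B2M was at 88.5 ± 5.44 FPKM in sh1 and 79.7 ± 5.26 FPKM in shNC, and HLA-F at 0.248 ± 0.0423 FPKM in sh1 and 0.208 ± 0.0775 FPKM in shNC (SD, n = 6 each). By the means in shNC, HLA-E stood above TAPBP and the order was otherwise the same. Library by library, TAPBP was above HLA-E in 4 of the 6 shNC libraries. TAPBP and HLA-E did not overlap in sh1 (38.2 ± 3.48 and 28.8 ± 1.02 FPKM) and overlapped in shNC (29.5 ± 2.62 and 29.9 ± 2.95 FPKM). TAP1 overlapped with HLA-C in both groups. HLA-C overlapped with HLA-B in sh1 but not in shNC, and HLA-B with PSMB9 in shNC but not in sh1. The gene lengths behind these FPKM values can differ from GENCODE 44, for B2M 6079 against 3121 bases, so the order between genes rests on the authors' annotation.

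All members but B2M lie in the MHC region of chromosome 6. The PSMB9 start in RefSeq is 488 bases from the upstream start of TAP1, on the opposite strand, and the 5′ end of the PSMB9 model shares 139 exon bases with PSMB8 on the opposite strand. TAP1 shares 672 exon bases with PSMB8-AS1, which had 2 to 14 counts per library, and TAPBP shares 1397 with a noncoding gene (ENSG00000289100), both on the opposite strand. Between the outer ends of HLA-F and TAPBP (chromosome 6, 29722775 to 33314284), 94 other genes were tested. Of these, 13 were higher (13.8%, against 12.8% of all genes tested) and 2 were lower (2.13%, against 13.3%), with a median log2 fold change of 0.051.

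The other genes of the pathway had fold changes of both signs, 10 of the 17 tested being positive. These are 18 further genes of peptide production, trimming and loading, of which 17 were tested. Of them, 4 were higher (against 12.8% of all genes tested) and 1 was lower (against 13.3%), with a median log2 fold change of 0.035. The higher ones included PSMB8, another immunoproteasome subunit, at 29.2 ± 3.56 CPM in sh1 and 21.2 ± 1.61 CPM in shNC (SD, n = 6 each; log2 fold change 0.47, adjusted p = 0.000385 from edgeR), with no overlap between the groups. PSME2, a subunit of the PA28 proteasome activator, was at 0.16 (adjusted p = 0.041) and the tapasin-related editor TAPBPL at 0.26 (adjusted p = 0.045). PSMB10, also an immunoproteasome subunit, was at 0.44 but did not pass (adjusted p = 0.058). The chaperone CANX (calnexin), which holds new heavy chains, fell to 1246 ± 44.4 CPM in sh1, against 1387 ± 80.6 CPM in shNC (-0.15, adjusted p = 0.022). CALR (calreticulin), the most abundant of this list by FPKM, did not pass (-0.06, adjusted p = 0.52). PSMB8 was called under all 23 alternative settings. The PSME2 call was lost under 9 of them, among them leaving out sh1 replicate 2, 4 or 5 or shNC replicate 3, 5 or 6, and the TAPBPL call under 11, among them leaving out sh1 replicate 1, 2, 5 or 6 or shNC replicate 1, 2 or 5. CANX lost its call under 6, namely the replicate block and leaving out sh1 replicate 1, 2, 3 or 5 or shNC replicate 5.

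Among 22 regulators of class I genes there were 6 higher (against 12.8% of all genes tested) and 1 lower in sh1 (against 13.3%). The median log2 fold change was 0.092. NLRC5, the coactivator dedicated to class I promoters, was at 10.9 ± 0.945 CPM in sh1 and 8.09 ± 1.05 CPM in shNC (SD, n = 6 each; log2 fold change 0.43, adjusted p = 0.00313 from edgeR). The interferon regulatory factor IRF2 rose by 0.31 (adjusted p = 0.00142), and the interferon-gamma receptor chains IFNGR1 and IFNGR2 rose by 0.35 (adjusted p = 0.00332) and 0.29 (adjusted p = 0.0015). RFX5, a DNA-binding subunit of the complex that NLRC5 works with, rose by 0.20 (adjusted p = 0.011), and the kinase JAK1, the most abundant of the list, by 0.13 (adjusted p = 0.034). The JAK1 call was lost under 7 alternatives, among them leaving out sh1 replicate 5 or shNC replicate 1, 5 or 6. RFXAP, another subunit of that complex, was called lower at the threshold itself (-0.22, adjusted p = 0.04997), and that call was lost under 19 of the 23 alternatives, among them leaving out any one of replicates 1 to 5 of either group. IRF1 (0.21, adjusted p = 0.25) did not pass.

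Of 24 interferon response genes, 21 were tested and 9 were higher with edgeR, against 12.8% of all genes tested. None was lower with edgeR, against 13.3% of all genes, nor at an unadjusted p under 0.05 (median 0.41). The guanylate-binding protein GBP1 was at 30.7 ± 3.06 CPM in sh1 and 13.7 ± 1.18 CPM in shNC (SD, n = 6 each; log2 fold change 1.16, adjusted p = 1.65e-08 from edgeR), and GBP2 at 22.3 ± 3.72 CPM in sh1 and 11.1 ± 1.94 CPM in shNC (1.01, adjusted p = 1.2e-05). The oligoadenylate synthetases OAS2 (1.33, adjusted p = 0.000687) and OAS3 (0.48, adjusted p = 0.000417) were higher, while the ubiquitin-like ISG15 (0.02, adjusted p = 0.92) and IFITM3 (0.13, adjusted p = 0.38), the most abundant of the list, did not pass. Of 12 class I-like genes, 6 were tested and 3 were higher (against 12.8% of all genes tested). They were MR1, which presents microbial vitamin metabolites (10.2 ± 1.44 CPM in sh1 and 4.67 ± 1.31 CPM in shNC, log2 fold change 1.13, adjusted p = 3.46e-05 from edgeR), and the natural killer cell ligands MICA (0.38, adjusted p = 0.00281) and RAET1E (0.36, adjusted p = 0.00599). ULBP2, the most abundant, was at 0.02 (adjusted p = 0.89). Without a filter on low counts, all 12 were tested, and MICB, also a natural killer cell ligand, was called lower (-1.44, adjusted p = 0.015 from edgeR, at 0 to 8 counts in the sh1 libraries and 6 to 18 in the shNC libraries) and CD1D, which presents lipids, higher (1.49, adjusted p = 0.029). DESeq2 called both in the same directions. MHC class II genes were low, at 13.7 to 16.7 CPM summed over 12 genes in sh1 and 14.1 to 16.6 CPM in shNC. Of the 12, 5 were tested and HLA-DMA alone was called (0.45, adjusted p = 0.043 from edgeR), a call that was lost without replicate 1, 2 or 6 of either group, sh1 replicate 4 or shNC replicate 5. HLA-DPB1, the most abundant, was at -0.23 (adjusted p = 0.23).

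**Figure D5:**
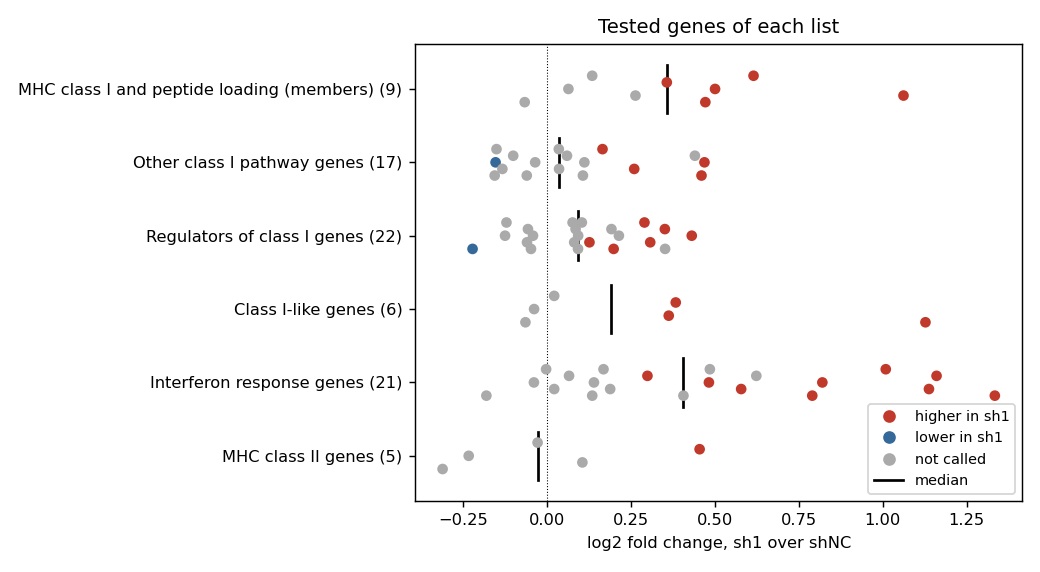
Tested genes of 6 lists by their log2 fold change (sh1 over shNC), with the number tested in brackets. Red points were higher and blue points lower at an adjusted p under 0.05 from edgeR, grey points were not called, and black lines are medians, which run from -0.029 for MHC class II genes to 0.41 for interferon response genes.

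Some genes used as markers of white blood cells also differed between the groups. The summed level of 12 leukocyte markers ranged from 41.2 to 53.4 CPM in sh1 and from 20.3 to 34.6 CPM in shNC. Nearly all of it came from 3 genes that were called higher, the lysosomal protein LAPTM5 (log2 fold change 0.93), the receptor CSF1R (1.08) and the integrin ITGAM (1.02). The other 9 were under 1 CPM in every library and were not tested. Without a filter on low counts, LYZ (lysozyme) was called lower (-1.67, adjusted p = 0.039 from edgeR, and also with DESeq2), at 1 to 3 counts in the sh1 libraries and 1 to 9 in the shNC libraries. The pan-leukocyte gene PTPRC had 0 to 2 counts in the sh1 libraries and 0 to 1 in the shNC libraries, and CD3E, a chain of the T cell receptor complex, had 0 to 2 counts in the sh1 libraries and 0 in every shNC library. Of 6 endothelial markers, 3 were tested, TIE1 was lower (-0.55) and none was higher, and of 6 epithelial markers CLDN4 alone was tested and was lower (-0.58), the other 5 being under 1 CPM in every library. The CLDN4 call was lost under 10 alternatives, among them leaving out replicate 3, 4 or 6 of either group or sh1 replicate 1. The part of these genes in the members' values was not tested. The cells were an established line selected with puromycin until all were EGFP-positive, and the study describes no other cell type in the cultures. Within such a culture, bulk RNA cannot tell more cells of a kind from more RNA per cell.

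With each group's mean removed, the genes whose levels over the 12 libraries were most like the mean of the 9 standardised members were MAFK (r = 0.96), ZNF710 (r = 0.96), PARP10 (r = 0.94), SLC7A5 (r = 0.94) and IER2 (r = 0.93), and none of them was called between sh1 and shNC. These values are a description, since all genes of a library share its depth and preparation. The members did not all move together: between pairs of them, r within groups ran from 0.85 (TAP1 with HLA-E) to -0.57 (B2M with HLA-C). Both TAP1 and HLA-E had their lowest shNC value in shNC replicate 1, and the r of pairs without that library was not computed. The mean of the standardised members was lowest in shNC replicate 1, where B2M (517 CPM) and HLA-F (1.26 CPM) lay above their shNC medians. Without that library, the r of MAFK, ZNF710, PARP10, SLC7A5 and IER2 with that mean ranged from 0.889 to 0.916. The group means and the standardisation were still taken with that library included, so these values are not free of it.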

How the data were processed

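RNA of 6 sh1 and 6 shNC libraries was sequenced as poly(A)-selected read pairs. The authors aligned reads with HISAT2 to GRCh38 and deposited gene counts from featureCounts (versions not given in the sources used here) and FPKM values made from them. In all 40131 rows with a count, the count divided by FPKM and total gave 1 gene length for all libraries within 0.01 bases. Of 58676 Ensembl identifiers, 58207 had a symbol, and 572 rows without an Ensembl identifier stayed in the totals. A deposited table of counts divided by DESeq2 size factors was not used.

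For 16489 genes that passed filterByExpr, counts went through TMM scaling, glmQLFit and glmQLFTest of edgeR 4.0.16 (R 4.3.3), with Benjamini-Hochberg adjustment. Standard errors are the fold change over the square root of F. CPM are TMM-normalized. Sums and ratios of FPKM were compared by exact permutation of libraries, and likeness used log2(CPM + 0.5). Alternatives used limma 3.58.1, DESeq2 1.42.0 and other scalings, filters and libraries. Scripts were tested on simulated data. Positions are from GENCODE 44 and promoters from RefSeq.

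The members and lists were chosen with earlier results of these data known. Named beside the members were RUNX2, up to 4 called genes with the smallest p and the most abundant gene of each list, genes overlapping a member, and, at a mean log2 CPM of 3 or more, the 5 genes most like the members. TAPBPL, PSMB10, RFX5, RFXAP, IRF1, ISG15, PTPRC, CD3E, MICB, CD1D and LYZ were named after their values were seen. Some genes that the rule names are not reported here. A comparison of protein sequences was planned and not made.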

Additional observations from a re-analysis of the deposited data

Results flagged for a closer look

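Single libraries far from the rest of their group, by Dixon's ratio at the 95% level, were found for 4 of 28 groups of values. By chance about 1 in 20 groups, here 1.4, would hold one if the groups were independent. They are not, since HLA-E made up 78.3% of the heavy chain sum in shNC, so that the sum largely repeats HLA-E. Of the 4 found, 3 share 1 library, shNC replicate 1. HLA-E was at 74.3 CPM there and at 90.2 to 95.9 CPM in the other shNC libraries, TAP1 at 18.4 CPM and 24.5 to 27.9 CPM, and the summed FPKM of HLA-B, HLA-C, HLA-E and HLA-F at 30.6 and 38.7 to 40.8. In sh1 replicate 1, TAPBP was at 226 CPM, against 176 to 192 CPM in the other sh1 libraries.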

How the results depend on the processing

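Between 5 and 6 members were called higher and 0 lower under every alternative run, and over all genes 1680 to 2438 were higher and 1650 to 2214 lower. HLA-B, HLA-C, TAP1, TAPBP and PSMB9 were called in each of them, with log2 fold changes from 0.89 to 1.13 for HLA-B and from 0.46 to 0.71 for PSMB9. The ratio of heavy chains to B2M, which was not called, had a log2 difference of 0.013 with all libraries. With 1 library left out it ran from -0.059 to 0.058. With HLA-B and HLA-C only, the heavy chain members called higher, it was 0.60. Leaving out 1 library gave differences from 0.55 to 0.66 for HLA-B to HLA-C, from 0.37 to 0.48 for TAP1 to TAP2, from 0.65 to 0.79 for PSMB9 to PSMB6 and from 2.88 to 4.92 FPKM for the heavy chain sum. B2M alone crossed the threshold, as given above. The replicate numbers showed no pairing of the libraries in expression. Same-numbered libraries correlated between -0.197 and 0.040, and no sh1 library correlated best with the shNC library of its own number. Whether same-numbered libraries were handled together is not stated. With the replicate number as a block, 5 members were called higher and 1680 genes were higher and 1700 lower. A sign-flip test of numbered pairs changed no call of the sum or ratios. For the ratios whose groups did not overlap, that test could only give its lowest p, 0.03125, so it was no check on them. HLA-F had 10 to 23 counts per library, and the 95% interval of its log2 fold change was the widest of the members.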
